A study of Mus musculus with 12 samples.

Results

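Skeletal muscle fast and slow fibre genes were followed across bulk RNA sequencing of mouse ear skin. The members are 45 genes named by symbol in a fixed list, of 24532 genes in the deposited table. All 45 were in the table, and all 45 were among the 16466 genes that passed the filter on low counts and were tested. By role, the list holds 6 slow fibre genes (Myh7, Myl2, Myl3, Tnnt1, Tnni1 and Tnnc1) and 14 fast fibre genes. The others are 14 sarcomere genes filed under neither kind, here called shared, 3 genes of calcium release and 8 genes of energy metabolism. Slow-type forms among these, such as Mybpc1 and Casq2, are not counted as slow fibre genes. The 12 libraries fell into 4 groups of 3. Mice were raised either free of specific pathogens (SPF) or without microbes, that is germ-free (GF), and the ear skin received ethanol, the vehicle, or MC903, which is calcipotriol, a vitamin D analogue that inflames mouse skin. The labels give 5 applications in both the ethanol and the MC903 groups, in words that do not settle how they were spaced. The strain label reads C57BL/6 in 9 libraries and ends in 7, 8 and 9 in GF MC903 4, GF ethanol 5 and GF MC903 5. No transgene or mutant allele is labelled, and the sources used here give no age. Nothing states that the libraries of a group are from different animals, so every p-value reflects only how far those libraries varied, which may be technical. The number in a library's name is its label: 1, 2 and 3 in SPF groups and 1, 4 and 5 in GF groups.

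A muscle fibre contracts when calcium released from the sarcoplasmic reticulum lets myosin filaments pull on actin filaments within the sarcomere. Fast and slow fibres build the same machine from different genes: each has its own myosin heavy and light chains and its own troponin subunits T, I and C, the calcium switch on the thin filament. Slow fibres resist fatigue and rely on oxidative metabolism, whereas fast fibres contract quickly and rely more on glycolysis. The mouse ear carries thin striated muscles near its base, and RNA from whole ear skin can hold their transcripts.

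The skin label was borne out by its markers. In SPF ethanol skin the basal keratins Krt5 and Krt14 stood at 3835 ± 232 and 4222 ± 352 CPM (counts scaled to a fixed library size, SD, n = 3), and the differentiation keratin Krt10 at 12243 ± 1191 CPM. Acan, the main proteoglycan of cartilage, stood at 226 ± 24.5 CPM. Libraries held between 36358294 and 48225425 estimated counts, of which the 45 muscle genes took 0.213% to 0.641%. Scaling by TMM, edgeR's trimmed mean method, used mean factors of 1.23 and 1.19 in SPF and GF ethanol libraries against 0.83 in both MC903 groups. On library totals alone the median gene of the MC903 responses shifted by -0.58 in SPF skin and -0.51 in GF skin on the log2 scale, and the share of calls that were higher went from 47.4% to 23.6% and from 48.8% to 22.4%. Between housings the median moved by -0.05 with ethanol and 0.01 with MC903, and the share of calls that were higher went from 52.9% to 39% and from 49.9% to 52%.

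The promoters of 5 members whose values differed in kind show what stands just upstream of these genes. Tnni1 (slow troponin I) and Tpm2 (beta-tropomyosin) rose with MC903, Tnnt1 (slow troponin T) differed strongly between housings, and Myh1 and Myh4 (the fast heavy chains of type IIX and IIB fibres) are neighbours in 1 gene cluster. Each run gives the 250 bases before the RefSeq transcript start, read 5′ to 3′ on the gene's strand in build GRCm38.p6. Capitals mark E-boxes, CANNTG, which bind MyoD-family factors, and matches to the MEF2 motif.
Tnni1 promoter, chr1:135799171-135799420, plus strand: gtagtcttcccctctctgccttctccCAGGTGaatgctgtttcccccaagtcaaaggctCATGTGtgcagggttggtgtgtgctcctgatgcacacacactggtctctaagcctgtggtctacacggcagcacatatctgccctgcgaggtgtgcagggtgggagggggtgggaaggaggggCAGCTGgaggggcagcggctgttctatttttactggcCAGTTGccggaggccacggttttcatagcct
Tpm2 promoter, chr4:43523555-43523804, minus strand: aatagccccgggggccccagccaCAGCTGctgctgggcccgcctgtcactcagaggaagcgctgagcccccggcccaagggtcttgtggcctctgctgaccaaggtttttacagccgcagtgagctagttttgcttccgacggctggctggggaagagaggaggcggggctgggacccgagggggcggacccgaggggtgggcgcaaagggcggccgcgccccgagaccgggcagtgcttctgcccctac
Tnnt1 promoter, chr7:4515976-4516225, minus strand: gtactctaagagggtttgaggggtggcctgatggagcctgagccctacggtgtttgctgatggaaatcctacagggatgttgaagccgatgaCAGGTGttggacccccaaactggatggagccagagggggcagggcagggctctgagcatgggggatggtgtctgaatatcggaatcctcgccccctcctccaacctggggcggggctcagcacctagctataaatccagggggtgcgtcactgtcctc
Myh1 promoter, chr11:67199852-67200101, plus strand: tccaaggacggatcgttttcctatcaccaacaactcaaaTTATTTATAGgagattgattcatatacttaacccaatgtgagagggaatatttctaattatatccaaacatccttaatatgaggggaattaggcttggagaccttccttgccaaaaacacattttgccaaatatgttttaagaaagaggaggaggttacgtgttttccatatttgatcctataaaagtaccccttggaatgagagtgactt
Myh4 promoter, chr11:67237562-67237811, plus strand: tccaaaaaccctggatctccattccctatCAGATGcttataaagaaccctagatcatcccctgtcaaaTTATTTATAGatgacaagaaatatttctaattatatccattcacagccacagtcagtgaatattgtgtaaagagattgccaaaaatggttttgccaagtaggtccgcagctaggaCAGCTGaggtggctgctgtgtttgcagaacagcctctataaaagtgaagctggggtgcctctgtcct
Tnni1 has 4 E-boxes here, beginning 224, 191, 68 and 31 bases before the start. Tpm2 and Tnnt1 have 1 each, at 227 and 158 bases. Myh1 has a MEF2 match at 211 bases and no E-box, whereas Myh4 has a MEF2 match at 182 bases and E-boxes at 221 and 67 bases. Both strands were searched, and no E-box overlapped a MEF2 match in these windows. The Tnni1 and Tpm2 windows precede a transcript start that lies inside the gene's annotated span.

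RefSeq's table held a promoter for 36 of the 45 members, in 44 windows. An E-box stood in 37 of these 44 windows (84.1%), against 66.2% of all 32851 windows of the same length. MEF2 matches stood in 8 of 44 (18.2%), against 2.92% of all windows. The CArG motif, which binds serum response factor, stood in 5 of 44 (11.4%), against 1.47%. Some members have overlapping windows, so that a site can count more than once, as the CArG site of Ldb3 does. By gene, 31 of the 36 members had an E-box, 8 a MEF2 match and 4 a CArG match. Such matches describe letters in the window and do not show that a factor bound there.

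In ethanol-treated skin, muscle genes were higher in GF than in SPF mice across nearly every role. Of the 45 members 38 were higher and 0 lower by edgeR's quasi-likelihood test at an adjusted p under 0.05, where 11.6% of all genes tested were higher and 10.3% lower (22% in either direction). The median member differed by 0.70 on the log2 scale (GF minus SPF), against 0.00 for all genes tested. All 6 slow genes were higher, with a median of 1.51 and a range of 1.0 to 2.44, and 13 of 14 fast genes were higher, with a median of 0.70. Of the other roles 10 of 14 shared sarcomere genes, 1 of 3 calcium release genes and 8 of 8 energy genes were higher. At an unadjusted p under 0.05 edgeR found 39 higher and 0 lower, and DESeq2 and limma voom each called 39 and 0. In a bulk sample, more muscle fibres and more RNA per fibre cannot be told apart. Leaving out each library in turn, 33 of the 38 calls were made every time, and the 5 that were lost at least once were Mybpc2, Actn2, Smpx, Cacna1s and Ampd1, with adjusted p up to 0.085, 0.081, 0.063, 0.062 and 0.13. Actn2 was lost without any ethanol library other than SPF ethanol 3, Smpx without GF ethanol 1 or 4 or SPF ethanol 2, Cacna1s without GF ethanol 4 or SPF ethanol 2, and Ampd1 without any ethanol library other than GF ethanol 1.

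**Figure D1:**
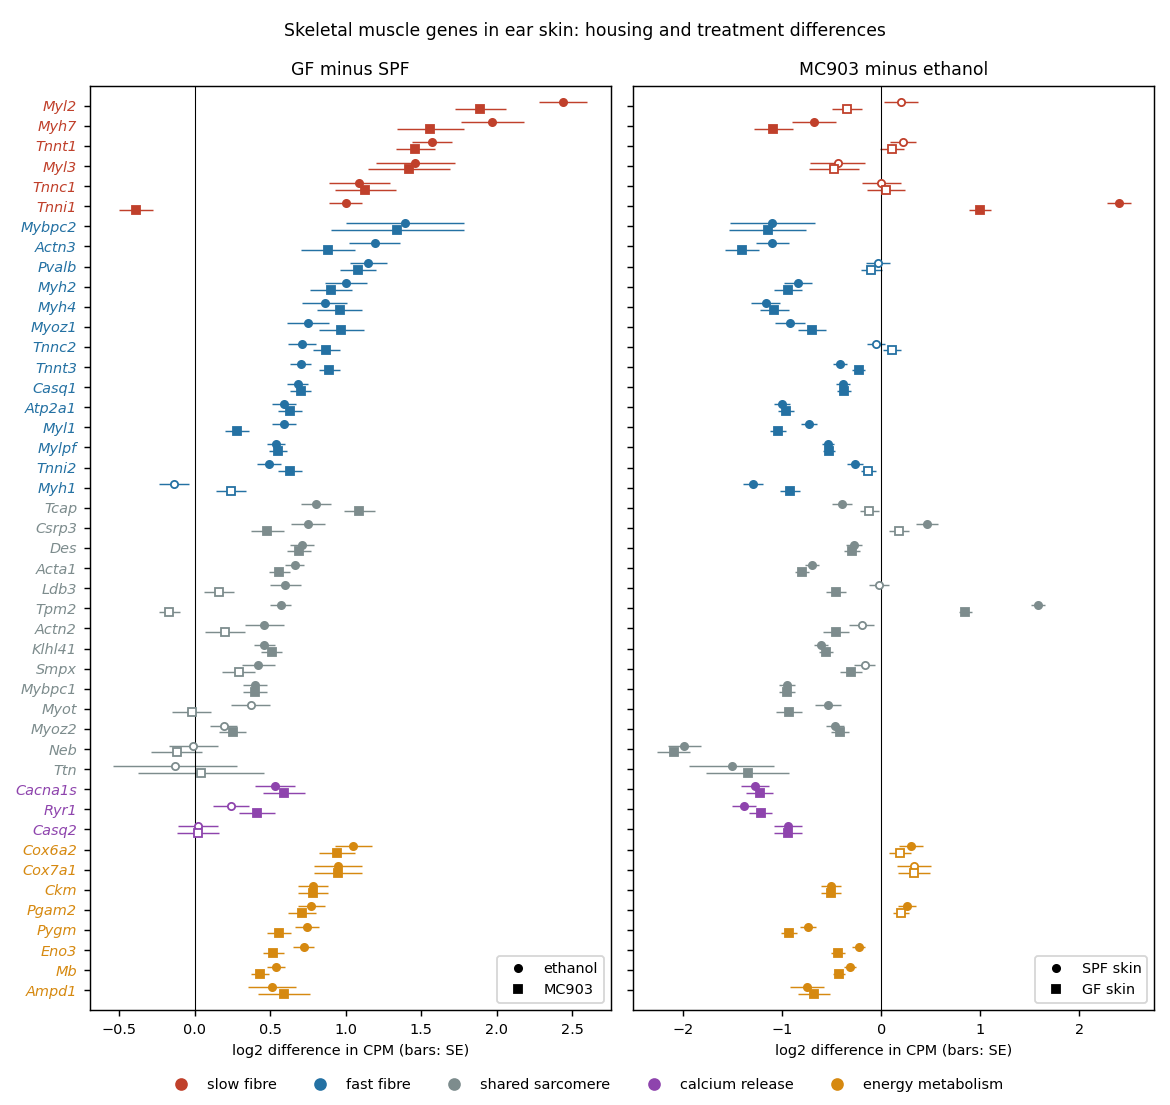
Log2 differences in CPM of the 45 muscle genes, GF minus SPF on the left (circles ethanol, squares MC903) and MC903 minus ethanol on the right (circles SPF, squares GF), with bars of 1 SE from the edgeR fit of 3 libraries per group. Filled symbols have an adjusted p under 0.05 and open ones do not; most symbols lie right of 0 on the left and left of 0 on the right, and the right panel moves further left on library totals, where the SPF rises of Csrp3, Pgam2 and Cox6a2 cross 0, as they do with the length trend removed.

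The 4 widest gaps between housings with ethanol were in slow fibre genes. The slow-type forms Mybpc1 and Casq2, filed under other roles, differed by 0.40 and 0.02. Myl2 (Entrez 17906, chr5:122092724-122113473), the slow and cardiac regulatory light chain, stood at 2.09, 2.19 and 2.69 CPM in SPF ethanol and at 13.4, 12.3 and 12.1 CPM in GF ethanol libraries. The 3 GF values all lay above the SPF values, a log2 difference of 2.44 (SE 0.16, adjusted p = 3.2e-05), or 5.41-fold. Myh7 (140781, chr14:54970684-54994626), the slow myosin heavy chain, stood at 3.19, 3.24 and 3.61 CPM against 13, 9.53 and 16.9 CPM, again without overlap, a difference of 1.97 (SE 0.21, adjusted p = 3.5e-04). Tnnt1 (21955, chr7:4504569-4515975) stood at 16.4, 18.0 and 17.7 CPM in SPF ethanol and 50.9, 52.0 and 51.3 CPM in GF ethanol libraries. Its libraries lay close together within each housing, and the difference was 1.57 (SE 0.13, adjusted p = 8.1e-05). Myl3, the slow essential light chain, was higher by 1.46 (adjusted p = 0.0039), from 2.12 ± 0.717 to 5.82 ± 0.604 CPM. Tnnc1, troponin C of slow and heart muscle, was higher by 1.09 (adjusted p = 0.0043), from 4.36 ± 0.899 to 9.27 ± 1.26 CPM. Tnni1 went from 12.7, 10.9 and 10.1 CPM to 23.3, 19.7 and 24.6 CPM, a difference of 1.0 (SE 0.11, adjusted p = 4.5e-04), the smallest of the 6.

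**Figure D2:**
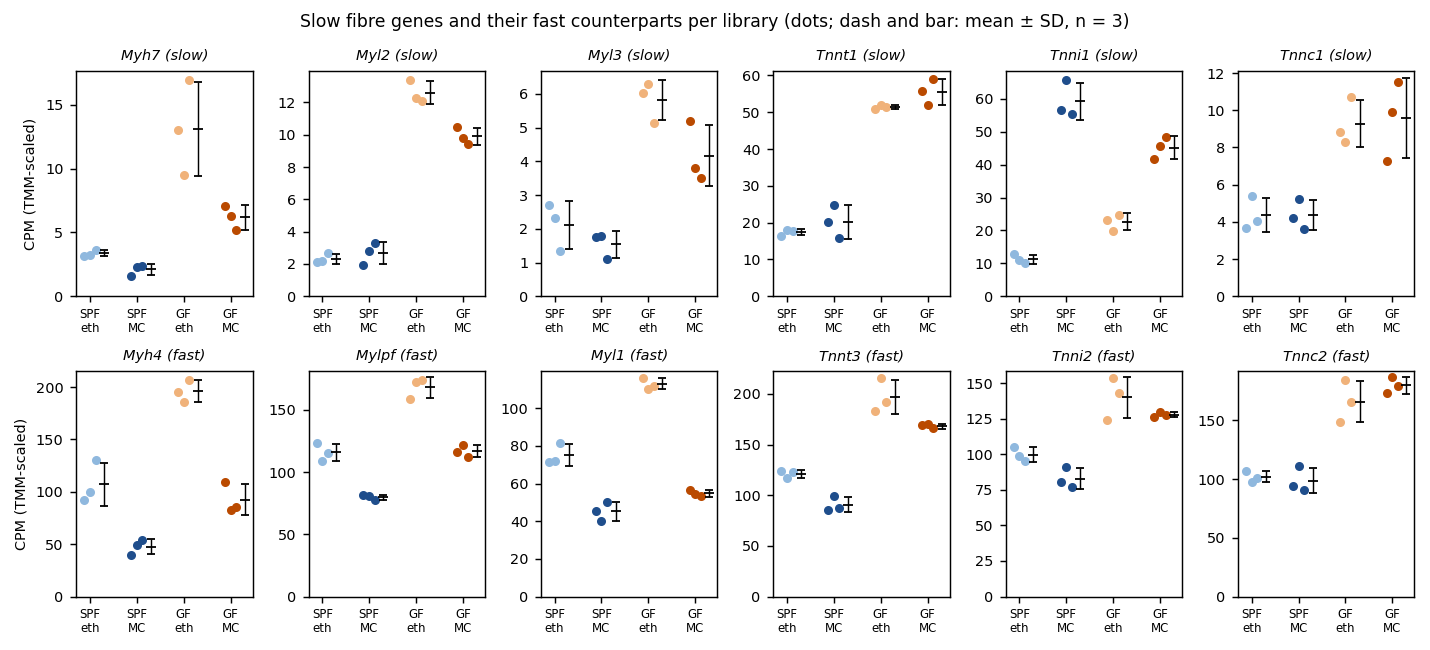
CPM of the 6 slow genes (top) and their fast counterparts (bottom) in each library, as dots by group, with the mean ± SD of 3 libraries beside them. The GF dots of Myl2, Tnnt1 and Myh7 stand above all SPF dots, and Tnni1 alone among the slow genes is highest in SPF MC903 libraries.

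The fast genes had a smaller median difference, 0.70. Among them Mybpc2, fast myosin-binding protein C, differed by 1.39 (adjusted p = 0.024), Actn3, the alpha-actinin of fast fibres, by 1.19 (adjusted p = 0.0013), and Pvalb, a calcium buffer that speeds relaxation, by 1.15 (adjusted p = 2.8e-04). The Mybpc2 call rested on low values, 2.14 ± 0.816 against 5.62 ± 1.22 CPM, and was lost without GF ethanol 1 or 4 or without SPF ethanol 1 or 2 (adjusted p between 0.053 and 0.085). Myh2, the heavy chain of type IIA fibres, stood at 49.1, 59.1 and 71.1 CPM in SPF ethanol libraries and 122, 112 and 125 CPM in GF ethanol libraries, a difference of 1.0 (SE 0.14, adjusted p = 0.0011). Myh4 stood at 92.5, 99.6 and 130 CPM against 195, 186 and 207 CPM, a difference of 0.86 (SE 0.15, adjusted p = 0.003). Neither pair of groups overlapped. Myh1 (17879, chr11:67200102-67224577) was the 1 fast gene without a call: it stood at 672, 663 and 792 CPM in SPF ethanol and 574, 656 and 693 CPM in GF ethanol libraries, overlapping ranges with a difference of -0.14 (SE 0.10, adjusted p = 0.32). The light chains Mylpf and Myl1 were higher by 0.54 and 0.59, the troponins Tnnt3, Tnni2 and Tnnc2 by 0.70, 0.49 and 0.71, the calcium pump Atp2a1 by 0.59, the calcium store protein Casq1 by 0.68 and the Z-disc protein Myoz1 by 0.75. With the trend of fold change on gene length removed (the length correction), Myl1 had no call (0.35, adjusted p = 0.064), and Mylpf, Tnni2 and Tnnc2 were higher by 0.29, 0.23 and 0.45.

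Among the shared sarcomere genes, Tcap, the titin cap at the Z-disc, was higher by 0.80 (edgeR adjusted p = 6.4e-04). Csrp3, a muscle LIM protein, was higher by 0.75, Des, the intermediate filament desmin, by 0.71, and Acta1, skeletal actin, by 0.66. Acta1 was also the member with the highest level per length, at 317 FPKM in SPF and 484 FPKM in GF ethanol skin (FPKM scales fragments by gene length and library size). Ldb3, Tpm2, Actn2, Klhl41, Smpx and Mybpc1 were higher by 0.60, 0.57, 0.46, 0.46, 0.42 and 0.40. Neb (nebulin, the thin filament ruler) and Ttn (titin, the giant spring of the sarcomere) had differences of -0.01 and -0.13 without a call, and Myot (myotilin) and Myoz2 (calsarcin) had 0.37 and 0.19 without a call. With the length trend removed Neb was higher by 0.45 (adjusted p = 0.021), and Smpx and Ampd1 had 0.21 and 0.46 without a call. Of the calcium release genes, Cacna1s, the voltage sensor channel, was higher by 0.53 (adjusted p = 0.016), while Ryr1, the release channel, had 0.24 (adjusted p = 0.17, or 0.62 and 0.0015 with the length trend removed, and 0.40 and 0.026 without SPF ethanol 3) and Casq2, the slow and heart form of calsequestrin, 0.02 (adjusted p = 0.93). All energy genes were higher: the cytochrome oxidase subunits Cox6a2 and Cox7a1 by 1.05 and 0.95, muscle creatine kinase Ckm by 0.78, the glycolytic enzymes Pgam2 and Eno3 by 0.77 and 0.72, glycogen phosphorylase Pygm by 0.74, myoglobin Mb by 0.54 and AMP deaminase Ampd1 by 0.51. Mb was higher by 0.32 after the length correction.

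The housing difference was present after MC903 too. The libraries compared are others than in the ethanol comparison, but the labels do not say whether same-numbered libraries share a mouse. The estimate of the spread comes from the same fit of all 12. Here 35 of 45 members were higher in GF skin and 1 was lower, where 20.8% of all genes tested were higher and 20.9% lower (41.7% in either direction). The median member differed by 0.59, against 0.02 for all genes tested. Myl2 stood at 1.95, 2.83 and 3.29 CPM in SPF MC903 and 10.5, 9.81 and 9.45 CPM in GF MC903 libraries, a difference of 1.89 (SE 0.17, adjusted p = 6.0e-06). Myh7, Tnnt1, Myl3 and Tnnc1 were higher by 1.56, 1.46, 1.42 and 1.13, and no SPF library reached a GF library in any of these genes. Tnni1 ran the other way, at 56.6, 65.8 and 55.5 CPM in SPF MC903 against 41.6, 45.8 and 48.3 CPM in GF MC903 libraries, a difference of -0.39 (SE 0.11, adjusted p = 0.013). That call was lost without GF MC903 1 (adjusted p = 0.056) or SPF MC903 2 (adjusted p = 0.052). Of the shared sarcomere genes 7 of 14 were higher, led by Tcap at 1.09, of the calcium release genes 2 of 3 and of the energy genes 8 of 8, led by Cox7a1 and Cox6a2 at 0.95 and 0.94. Of the fast genes 13 of 14 were higher, from Myl1 at 0.28 to Mybpc2 at 1.34, and Myh1 had 0.24 (adjusted p = 0.074). Of the 35 higher calls 31 were made whichever library was left out, and Myl1, Mybpc2, Myoz2 and Ryr1 were each lost at least once. Myl1 was lost without GF MC903 1 (adjusted p = 0.067) or SPF MC903 2 (0.069), Mybpc2 without GF MC903 1 or SPF MC903 1 or 2 (up to 0.1), Ryr1 without SPF MC903 2 (0.057) and Myoz2 without any of 10 libraries (0.058 to 0.19). Myh1 had a call without GF MC903 1 (0.31, adjusted p = 0.039). With the length trend removed 31 members were higher and 1 lower, beside 2729 and 3765 of all 16466 genes tested. Mylpf, Csrp3, Mb, Myl1 and Myoz2 then lost their calls at 0.16, 0.12, 0.14, -0.07 and -0.03, and Myh1 gained one at 0.33. Tnni1 then had -0.68, and Tnnc1, Cox7a1 and Cox6a2 were higher by 0.74, 0.45 and 0.53.

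With MC903 most muscle genes fell in both housings, while Tnni1 and Tpm2 rose. The response of each housing shares libraries with the housing comparisons and is not independent of them. In SPF skin 30 of 45 members fell and 5 rose, where 38.8% of all genes tested fell and 35% rose (73.8% in either direction), and the median member changed by -0.47 against -0.10 for all genes tested. In GF skin 31 fell and 2 rose, where 35.1% of all genes fell and 33.4% rose (68.5%), and the medians were -0.48 and -0.07. On library totals the counts were 40 lower and 2 higher in SPF skin and 42 lower and 2 higher in GF skin. Of all 16466 genes tested, 10106 were then lower and 3127 higher in SPF skin, and 9697 and 2795 in GF skin. With the length trend removed the member counts were 35 and 2, and 42 and 2. Over all genes they were then 5714 and 6129, and 5135 and 5542. The Schwann cell markers fell with the muscle genes, 8 of 8 in each housing. Their summed level ranged over 620 to 714 CPM in SPF ethanol and 362 to 414 CPM in SPF MC903 libraries. The adipocyte markers fell in 4 of 7 cases in each housing, and in GF skin in 6 on library totals and 7 after length correction. Of 6 tested cartilage markers 4 fell and 1 rose in SPF skin, and 5 fell and 0 rose in GF skin. With the length trend removed 2 of them fell and 3 rose in SPF skin, and 2 fell and 0 rose in GF skin. Of 8 keratinocyte markers 4 rose and 3 fell in SPF skin, and 5 rose and 1 fell in GF skin. On library totals 3 of them rose and 4 fell in SPF skin, and 3 rose and 3 fell in GF skin. The keratinocyte markers summed to 25261 to 27155 CPM in SPF ethanol and 50452 to 61747 CPM in SPF MC903 libraries. In GF skin the Schwann markers ranged over 741 to 774 CPM with ethanol and 400 to 434 CPM with MC903, and the keratinocyte markers over 28700 to 33341 and 63538 to 66445 CPM. The part of these tissues in the fall of the muscle genes was not tested.

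Most fast fibre genes fell. Of 14 fast genes 12 fell in SPF and 11 in GF skin, with medians of -0.78 and -0.81, and 0 rose in either, also at an unadjusted p under 0.05 and by DESeq2 and limma voom. Myh1 fell from 672, 663 and 792 CPM to 295, 290 and 278 CPM in SPF skin, which is -1.30 (SE 0.10, adjusted p = 1.5e-07). In GF skin it fell from 574, 656 and 693 CPM to 305, 385 and 328 CPM, which is -0.92 (SE 0.10, adjusted p = 4.7e-06). In each housing every MC903 library lay below every ethanol library. Myh4 fell by 1.17 and 1.08, Actn3 by 1.10 and 1.41, Atp2a1 by 1.0 and 0.96 and Myl1 by 0.73 and 1.04 (SPF, then GF). Myh2 fell by 0.84 and 0.94, Myoz1 by 0.92 and 0.70, Mylpf by 0.54 and 0.53, Tnnt3 by 0.42 and 0.23 and Casq1 by 0.39 and 0.38, and Mybpc2 fell by 1.10 and 1.15. Pvalb had -0.03 and -0.10 and Tnnc2, the fast troponin C, -0.05 and 0.11, all without a call under TMM scaling, and Tnni2, the fast troponin I, fell in SPF skin (-0.27, adjusted p = 0.01) and had -0.13 (adjusted p = 0.17) in GF skin. These values depend on the scaling: on library totals all 14 fast genes had a call for a fall in each housing. So did 10106 of all 16466 genes tested in SPF and 9697 in GF skin. Pvalb then had -0.61 in each, Tnnc2 -0.63 and -0.40 and Tnni2 in GF skin -0.64. After the length correction 13 and 14 of the 14 fell, beside 5714 and 5135 of all genes. Pvalb was then at -0.52 and -0.69, Tnnc2 at -0.73 and -0.71 and Tnni2 at -0.97 and -0.98. That correction made the falls of the long heavy chains smaller, with Myh1 at -0.76 and -0.48, Myh2 at -0.30 and -0.49 and Myh4 at -0.63 in each housing. It made those of short genes larger, with Myl1 at -1.24 and -1.66, Mylpf at -1.17 and -1.29, Tnnt3 at -0.87 and -0.76 and Myoz1 at -1.09 in GF skin. The Mybpc2 call in SPF skin was lost after length correction (-0.86, adjusted p = 0.085) and without SPF MC903 1 or 2 or SPF ethanol 1 or 3 (adjusted p between 0.058 and 0.15). In GF skin Mybpc2 lost its call without GF MC903 4 (adjusted p = 0.072) or GF ethanol 1 (adjusted p = 0.075), and Tnnt3 without GF ethanol 4 (-0.14, adjusted p = 0.1).

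Large falls were found in calcium release and giant sarcomere genes. Neb (17996, chr2:52136640-52338798) stood at 62.6, 57.7 and 91.7 CPM in SPF ethanol and 17.7, 15.1 and 20.6 CPM in SPF MC903 libraries, a fall of 1.99 (SE 0.17, adjusted p = 4.0e-07). In GF skin Neb went from 74.0, 62.3 and 74.5 CPM to 14.8, 18.2 and 16.2 CPM, a fall of 2.1 (SE 0.17, adjusted p = 4.3e-07). Groups did not overlap in either housing, and with the length trend removed the falls were smaller, -0.94 and -1.35, still with a call. Ttn (22138, chr2:76703980-76982557) changed by -1.51 and -1.35 (adjusted p = 0.0064 and 0.013). In GF MC903 1 it had 449 counts, against 2269 and 2139 in the other GF MC903 libraries, and without that library its GF change was -0.90 (adjusted p = 0.0021). With the length trend removed Ttn had 0.03 and -0.36, without a call (adjusted p = 0.95 and 0.45). Ryr1 fell by 1.39 and 1.22, Cacna1s by 1.28 and 1.23 and Casq2 by 0.94 in each housing. Corrected for length, Ryr1 fell by only 0.49 and 0.55 and Cacna1s by 0.74 and 0.77, each still with a call. Of the energy genes Ckm, Mb, Eno3, Pygm and Ampd1 fell in both housings, by 0.23 (Eno3) to 0.75 (Ampd1) in SPF skin and by 0.43 (Mb) to 0.93 (Pygm) in GF skin, and the Eno3 call in SPF skin was lost without SPF ethanol 3 (-0.19, adjusted p = 0.05). Corrected for length, Ckm had -0.80 and -0.85, Mb -0.74 and -0.93 and Eno3 -0.47 and -0.71.

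Among the remaining shared sarcomere genes, Mybpc1, the slow type of myosin-binding protein C, fell by 0.95 in each housing and Acta1 by 0.70 and 0.80. Klhl41, a stabiliser of nebulin, fell by 0.61 and 0.56, Myot by 0.54 and 0.93, Myoz2 by 0.47 and 0.42 and Des by 0.28 and 0.30. After that correction Des had no call in SPF skin (-0.17, adjusted p = 0.061) and -0.19 in GF skin, while Myoz2 had -0.86 and -0.88. Tcap fell in SPF skin (-0.40, adjusted p = 0.0022) and had -0.12 (adjusted p = 0.29) in GF skin, which became -0.91 and -0.71, both with a call, with the length trend removed. Ldb3, Actn2 and Smpx fell in GF skin by 0.46, 0.46 and 0.31, against -0.02, -0.20 and -0.17 without a call in SPF skin, and Smpx lost its call without GF MC903 1 or 4 or GF ethanol 1 (adjusted p between 0.065 and 0.1). Within the slow set Myh7 fell by 0.68 in SPF and 1.09 in GF skin. Without SPF MC903 1 the SPF value was -0.50 (adjusted p = 0.075), and with the length trend removed it was -0.13 (adjusted p = 0.59), against -0.63 in GF skin. Myl2, Myl3, Tnnt1 and Tnnc1 had no call in either housing under TMM scaling, with values between -0.48 and 0.22. Other scalings gave falls in the slow set. On library totals 4 of the 6 slow genes were lower in SPF and 5 of 6 in GF skin. Over all 16466 genes tested, 10106 and 9697 were then lower, so a fall was the common result there. Corrected for length 3 and 5 of the 6 were lower, beside 5714 and 5135 of all genes. On library totals Myl3 had -1.02 and -0.99, Tnnt1 -0.36 and -0.40 and Tnnc1 -0.57 and -0.47, all with a call, and Myl2 had -0.38 (adjusted p = 0.063) and -0.86 (adjusted p = 2.8e-04). After the length correction Myl3 had -0.97 and -1.11, Myl2 -0.50 and -1.20 and Tnnc1 -0.67 and -0.77, all with a call, and Tnnt1 had -0.24 (adjusted p = 0.06) and -0.43 (adjusted p = 0.0032). No direction is therefore given for these 4 genes. Without single libraries, calls appeared for Myl2 in SPF skin (0.39 without SPF MC903 1), Myl3 in SPF skin (-0.70 without SPF ethanol 3) and Tnnt1 in SPF skin (0.37 without SPF MC903 3).

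Tnni1 and Tpm2 rose with MC903 in both housings and under each of the 21 fits run. Tnni1 (21952, chr1:135783033-135810989) went from 12.7, 10.9 and 10.1 CPM to 56.6, 65.8 and 55.5 CPM in SPF skin, a rise of 2.40 (SE 0.12, adjusted p = 2.9e-09), or 5.27-fold. In GF skin it went from 23.3, 19.7 and 24.6 CPM to 41.6, 45.8 and 48.3 CPM, a rise of 1.0 (SE 0.11, adjusted p = 5.8e-06). The MC903 values lay wholly above the ethanol values in both housings. The rise in SPF skin was 1.82 on library totals and 1.98 with the length trend removed, and that in GF skin was 0.49 and 0.50. Tpm2 (22004, chr4:43513726-43523583), whose product is also made in smooth muscle, went from 141, 128 and 139 CPM to 392, 439 and 388 CPM in SPF skin, a rise of 1.58 (SE 0.07, adjusted p = 2.1e-09). In GF skin it went from 190, 217 and 196 CPM to 359, 343 and 382 CPM, a rise of 0.85 (SE 0.07, adjusted p = 6.2e-07), and on library totals the rises were 1.0 and 0.34. Here too no MC903 library overlapped an ethanol library of the same housing. Csrp3 (0.46), Cox6a2 (0.30) and Pgam2 (0.26) had calls for a rise in SPF skin that turned to -0.12, -0.28 and -0.32 on library totals and to -0.06, -0.42 and -0.27 with the length trend removed. The Cox6a2 call was also lost without SPF MC903 2 or SPF ethanol 1 or 2 (adjusted p between 0.083 and 0.2), and that of Pgam2 without SPF MC903 2 (adjusted p = 0.071) or SPF ethanol 1 (adjusted p = 0.058). In GF skin these 3 had 0.18, 0.19 and 0.20 without a call, and Cox7a1 had 0.33 in each housing without a call. Leaving out GF ethanol 4 gave calls for Pgam2 (0.28) and Cox7a1 (0.48) in GF skin.

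Genes of other muscle types moved in the same libraries, where 35% of all genes rose and 38.8% fell in SPF skin, and 33.4% and 35.1% in GF skin. Of 10 smooth muscle markers 5 rose and 3 fell in each housing. The balance moved with the scaling. On library totals 4 rose and 5 fell in SPF skin and 4 and 4 in GF skin. Over all 16466 genes tested, 3127 then rose and 10106 fell in SPF skin, and 2795 and 9697 in GF skin. After correction for length 6 markers rose and 1 fell in SPF skin, and 4 and 1 in GF skin. Over all genes these counts were 6129 and 5714, and 5542 and 5135. Actg2, the enteric smooth muscle actin, rose by 2.84 and 2.44, Cnn1, calponin, by 2.13 and 1.55 and Acta2, the vascular smooth muscle actin, picked here after its values were seen, by 1.25 and 0.85, while Synpo2 fell by 2.15 and 2.28 and Myocd fell by 2.62 in SPF skin. The Myocd call was lost after length correction (adjusted p = 0.099) and without any of 6 libraries (adjusted p between 0.058 and 0.14), and without SPF MC903 1 the value was -6.38. Summed, these markers ranged over 164 to 170 CPM in SPF ethanol, 244 to 260 CPM in SPF MC903, 186 to 207 CPM in GF ethanol and 261 to 283 CPM in GF MC903 libraries. Of 7 heart markers 5 were tested, and Nppa and Nppb did not pass the filter on low counts. Of the 5, 1 rose and 2 fell in SPF skin, and 1 rose and 1 fell in GF skin. Myl7, the atrial light chain, rose from 0.187 ± 0.13 to 70.8 ± 18.8 CPM in SPF skin and from 0.277 ± 0.146 to 27.7 ± 4.58 CPM in GF skin, log2 changes of 8.54 and 6.63. Myh6, the atrial heavy chain, fell by 1.85 in SPF skin (adjusted p = 0.0017), to 0.173 ± 0.00788 CPM, and had -0.96 in GF skin (adjusted p = 0.05). Tnni3, cardiac troponin I, stood at 2.77 ± 0.717 CPM in SPF MC903 libraries, against 2.0 ± 0.77 CPM in SPF ethanol libraries without a call. Hcn4, a pacemaker channel, fell by 1.51 in SPF skin (adjusted p = 0.0055) and was at 0 in all GF MC903 libraries. In the list of other sarcomere genes Tpm3, a tropomyosin of slow fibres and non-muscle cells picked here after its values were seen, rose by 1.23 and 0.91. The part of smooth muscle, heart-type or non-muscle cells in the rise of Tnni1 and Tpm2 was not tested.

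The response to MC903 itself differed between housings for 3 members. This test of the difference, GF response minus SPF response, called 3 of 45 lower and 0 higher, where 9.26% of all genes tested were lower and 7.75% higher (17% in either direction). DESeq2 and limma voom each also called 0 members higher, and edgeR found 1 at an unadjusted p under 0.05. Tnni1 differed by -1.39 (SE 0.16, adjusted p = 1.9e-04), Tpm2 by -0.73 (SE 0.10, adjusted p = 6.7e-04) and Ldb3 by -0.44 (SE 0.13, adjusted p = 0.044). The rises of Tnni1 and Tpm2 were smaller in GF skin, where both had higher ethanol levels. Tnni1 and Tpm2 kept a call under each of the 21 fits. Ldb3, an adaptor of the Z-disc, stood at 39.4, 37.4 and 48.4 CPM in SPF ethanol, 43.3, 37.9 and 42.6 CPM in SPF MC903, 66.5, 62.9 and 60.4 CPM in GF ethanol and 46.5, 44.2 and 47.8 CPM in GF MC903 libraries. Its groups overlapped in SPF skin and did not in GF skin. It lost the call on library totals (adjusted p = 0.099) and when any of 10 of the 12 libraries was left out (adjusted p between 0.057 and 0.099). The other 42 members had values between -0.55 (Myl2) and 0.38 (Myh1, adjusted p = 0.085) without a call, and on library totals Myh1 had a call for a smaller fall in GF skin (0.45, adjusted p = 0.043). Calls also appeared for Myl1 (-0.39) and Tcap (0.40) without SPF MC903 2 and for Myl2 (-0.74) without SPF MC903 1.

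Setting each slow gene against its fast counterpart within a library removes the scaling of that library. Each value is the slow count as a percent of the fast count, tested on the log2 scale by a two-sided exact permutation test over 400 arrangements within strata, whose smallest p is 0.005, with adjustment over 12 tests. Between housings 4 of the 6 ratios were higher in GF skin, each at that smallest p (exact permutation, adjusted p = 0.01). Myl2 over Mylpf was 1.7, 2.0 and 2.33% in SPF ethanol, 2.39, 3.52 and 4.26% in SPF MC903, 8.45, 7.17 and 6.91% in GF ethanol and 9.0, 8.06 and 8.42% in GF MC903 libraries. No SPF value reached a GF value, and the difference was 1.64 on the log2 scale. Myl3 over Myl1, Myh7 over Myh4 and Tnnt1 over Tnnt3 were higher in GF skin by 1.04, 0.83 and 0.73. Tnnc1 over Tnnc2 had 0.33 (exact permutation p = 0.06, adjusted p = 0.09), which had an adjusted p of 0.043 without GF MC903 1. Tnni1 over Tnni2 had -0.25 (exact permutation p = 0.31, adjusted p = 0.34). That value pools 0.52 with ethanol and -1.02 with MC903, which have opposite signs.

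Between treatments the troponin I pair changed most. Tnni1 counts were 12.1, 11.1 and 10.6% of Tnni2 counts in SPF ethanol libraries and 70.1, 72.4 and 72.2% in SPF MC903 libraries. In GF skin they were 18.7, 12.8 and 17.3% with ethanol and 33.0, 35.2 and 37.9% with MC903. Over both housings the ratio rose by 1.90 on the log2 scale (exact permutation p = 0.005, adjusted p = 0.01), made up of 2.67 in SPF and 1.13 in GF skin. Tnnt1 over Tnnt3 rose by 0.48 (exact permutation p = 0.005, adjusted p = 0.01), from 13.3, 15.4 and 14.4% to 23.4, 25.1 and 18.1% in SPF skin and from 27.8, 24.1 and 26.7% to 33.1, 30.5 and 35.5% in GF skin. The groups did not overlap within either housing. Myl2 over Mylpf rose by 0.45 (exact permutation p = 0.02, adjusted p = 0.034). That call was lost with the length trend removed (adjusted p = 0.086) and without SPF ethanol 1, 2 or 3, SPF MC903 3 or GF ethanol 4 (adjusted p between 0.051 and 0.12). Myl3 over Myl1 had 0.42 (exact permutation p = 0.14, adjusted p = 0.17), Myh7 over Myh4 0.25 (exact permutation p = 0.11, adjusted p = 0.15) and Tnnc1 over Tnnc2 -0.02 (exact permutation p = 0.9). Leaving out SPF MC903 3 gave Myl3 over Myl1 an adjusted p of 0.043, and leaving out GF ethanol 5 gave the same for Myh7 over Myh4.

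**Figure D3:**
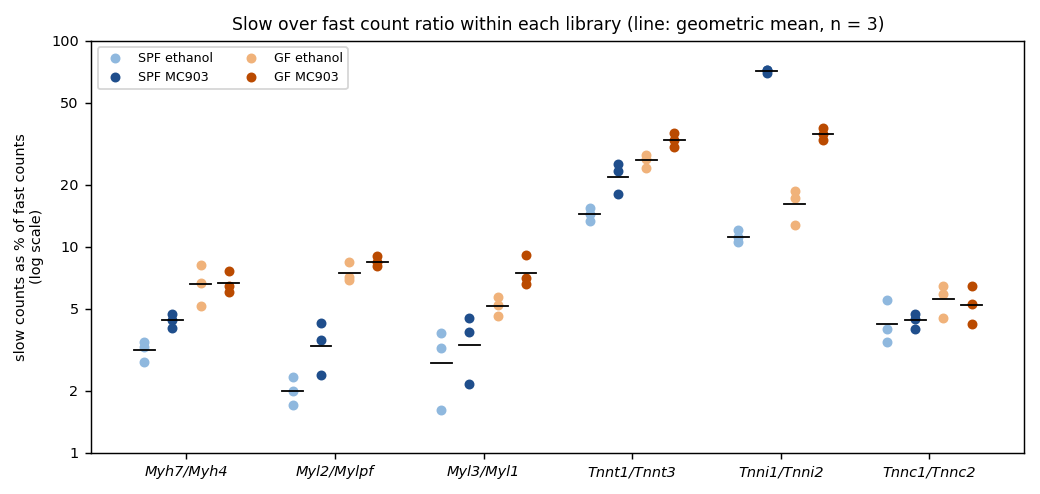
Counts of each slow gene as a percent of the counts of its fast counterpart in the same library, on a log scale, with a dot per library and a line at the geometric mean of 3 libraries. Orange GF dots lie above the blue SPF dots of the same treatment for Myl2/Mylpf, Myl3/Myl1, Myh7/Myh4 and Tnnt1/Tnnt3, while Tnni1/Tnni2 is highest in SPF MC903 libraries at 70.1 to 72.4%.

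Summed per length, the 6 slow genes reached 4.11 ± 0.354% of the 14 fast genes' FPKM in SPF ethanol and 7.78 ± 0.561% in GF ethanol skin (SD, n = 3). With MC903 the index was 12.8 ± 1.01% in SPF and 11.9 ± 0.749% in GF skin. Leaving Tnni1 out changed that order: the index was then 3.04 ± 0.319 and 4.71 ± 0.642% in SPF skin with ethanol and MC903 and 6.33 ± 0.374 and 8.10 ± 0.498% in GF skin. These sums are a description and carry no test.

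The mix of myosin heavy chains was read on 1 scale. It is the share of each gene in the summed FPKM of Myh1, Myh2, Myh4, Myh7, Myh3 and Myh8. In GF ethanol skin the lower share of Myh1 went with higher shares of the fast Myh2 and Myh4 as well as the slow Myh7. Myh1 held 76.8, 75.4 and 73.5% in SPF ethanol, 71.8, 72.5 and 67.7% in SPF MC903, 58.4, 63.8 and 60.6% in GF ethanol and 57.3, 67.4 and 62.3% in GF MC903 libraries. Each GF library lay below each SPF library. Myh2 held 6.24 ± 0.602% in SPF and 11.3 ± 0.835% in GF ethanol skin, and Myh4 held 11.3 ± 0.762 and 18.6 ± 0.992%. Myh7 held 0.354 ± 0.018 and 1.23 ± 0.284%, with SPF libraries at 0.333 to 0.366% and GF libraries at 0.919 to 1.47%. Of the developmental chains, the embryonic Myh3 held 6.21 ± 0.789 and 7.71 ± 1.27%, and the perinatal Myh8 held 0.649 ± 0.142 and 0.276 ± 0.0315%. The heavy chains resemble each other: of their transcript windows of 50 bases 25.4% in Myh1, 26.9% in Myh2, 18.9% in Myh4 and 21.2% in Myh7 also occur in another gene, Myh6 in the case of Myh7. The sources used here do not say how such reads were divided, which leaves the split among heavy chains uncertain. Klhl41 shared 4.52% and Acta1 1.83% of its windows with other genes, and the other members shared at most 0.453%.

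**Figure D4:**
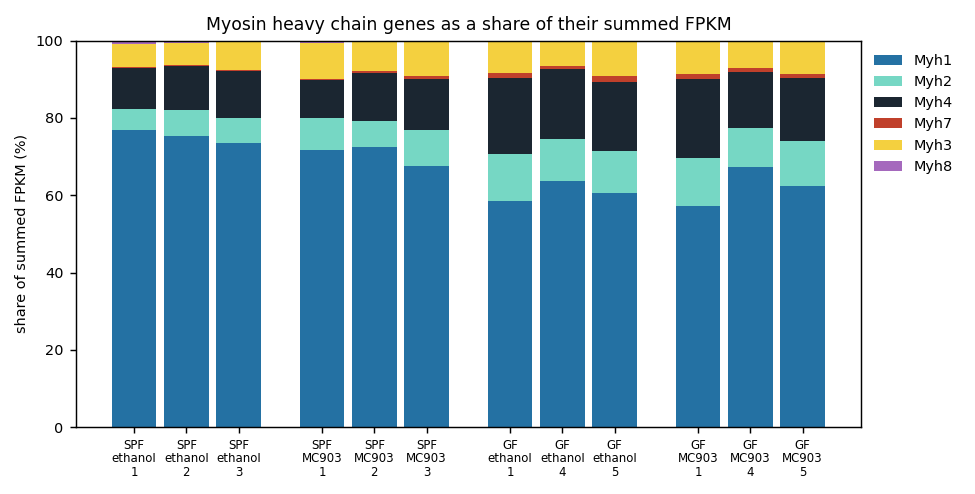
Share of 6 myosin heavy chain genes in their summed FPKM, as stacked bars from 0 to 100% with 1 bar per library in the 4 groups. Myh1 takes 67.7 to 76.8% in SPF libraries and 57.3 to 67.4% in GF libraries, where Myh2, Myh4 and Myh7 take more.

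Gene length ran with the MC903 responses across the members. The length implied by counts and FPKM ranged from 377 bases for the shortest member to 104009 for Ttn. Over the 45 members, the log2 of length and the SPF response had a Pearson r of -0.60 and a Spearman rho of -0.73. For the log2 of length and the GF response these were -0.69 and -0.75. The values are a description across genes that share the same libraries. The 15 shortest members (377 to 1058 bases) had a median response of -0.03 in SPF and -0.10 in GF skin. The 15 of middle length (1110 to 2936 bases) had -0.51 in both, and the 15 longest (2957 bases and more) -1.10 and -1.08. Between housings the medians of the shortest, middle and longest members were 0.80, 0.60 and 0.57 with ethanol and 0.94, 0.51 and 0.59 with MC903. RNA integrity was not measured in the values used here, and its part in the pattern was not tested.

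**Figure D5:**
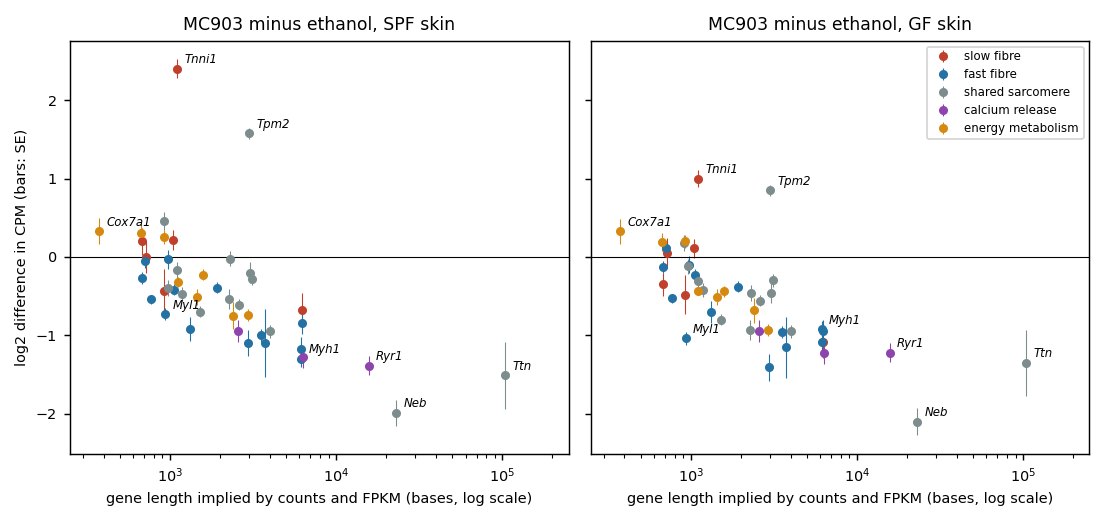
Response to MC903 (log2 difference in CPM, bars of 1 SE from the edgeR fit of 3 libraries per group) against gene length in bases on a log scale, for the 45 members in SPF skin on the left and GF skin on the right. Longer members lie lower, down to Neb at -1.99 and -2.1, and Tnni1 and Tpm2 stand above the others at their lengths.

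Muscle genes outside the list were read in the same comparisons, where 11.6% of all genes were higher in GF skin with ethanol and 20.8% with MC903. Of 23 other sarcomere genes 9 were higher in GF ethanol skin (14 with the length trend removed), with a median of 0.31, and 13 with MC903. With the length trend removed 1193 of all 16466 genes were higher in GF ethanol skin. With MC903 19 of the 23 fell in each housing, where 38.8 and 35.1% of all genes fell. Corrected for length 12 fell in SPF and 17 in GF skin, beside 5714 and 5135 of all genes. Those that fell included Cmya5 (-1.45 and -1.15), Tmod4, a thin filament cap (-1.45 in SPF skin), Lmod2 (-1.31 in SPF skin), and Nrap (-1.19 in GF skin). Corrected for length, Cmya5 had -0.65 and -0.54 and Nrap -0.78, each with a call. Of 15 myogenic regulators 3 were higher in GF ethanol skin, and the median was -0.12. Among them, picked after their values were seen, were Myod1, the founding muscle determination factor (1.42, adjusted p = 0.0089), and Srf, serum response factor (0.45, adjusted p = 0.0061). With MC903 10 of the 15 fell in SPF and 9 in GF skin, with Six4 at -2.15 and -2.38 and Mef2c, a MEF2 factor, at -1.54 and -1.93. Myf5, a determination factor, fell by 2.13 in SPF skin and Pax7, the marker of satellite cells, by 1.96 in GF skin. Mef2c, corrected for length, had -0.97 in SPF skin, and the Myf5 call was lost without SPF MC903 1 or 3 or SPF ethanol 1 or 2 (adjusted p between 0.058 and 0.1).

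Genes of the neuromuscular junction fell in 7 of 10 cases in each housing and rose in 2. Over all genes tested, 38.8% fell and 35% rose in SPF skin, and 35.1% and 33.4% in GF skin. Lrp4, the agrin receptor, changed by -3.41 and -1.68, or by -2.76 and -1.16 with the length trend removed. It stood at 246 CPM in SPF ethanol skin, against 11.6 CPM for the receptor subunit gene Chrna1 and 1.53 CPM for Musk. The part of cells other than muscle in the Lrp4 values was not tested. Ache, acetylcholinesterase, changed by -2.88 and -1.94, and Dok7, an activator of the receptor kinase MuSK, by -1.99 and -1.42. Dok7 stood at 0.568, 3.5 and 0.888 CPM in GF MC903 libraries; without GF MC903 4 its GF change was -2.60, and without GF MC903 5 it had no call (adjusted p = 0.053). The 2 that rose, Chrnb1 (a subunit of the acetylcholine receptor, 1.78 and 0.89) and Rapsn (rapsyn, which clusters that receptor, 1.12 and 0.72), were picked after their values were seen. Rapsn had no call on library totals in SPF (0.55, adjusted p = 0.052) or GF skin (0.21, adjusted p = 0.43), nor in GF skin after length correction (0.48, adjusted p = 0.097) or without GF MC903 5, GF ethanol 1 or GF ethanol 5 (adjusted p between 0.057 and 0.076). Between housings with ethanol 3 of the 10 were higher in GF skin, where 11.6% of all genes were higher and 10.3% lower. Of 12 genes of the dystrophin complex and sarcolemma 8 fell in SPF and 7 in GF skin, with Dmd, dystrophin, at -2.15 and -1.93, Ano5 at -1.40 and -1.66 and the muscle calpain Capn3 at -0.96 and -0.74. Ano5, corrected for length, had -0.75 in SPF skin, and Capn3 in GF skin then lost its call (-0.60, adjusted p = 0.051), as it did without GF MC903 1 or 4 or GF ethanol 1 (adjusted p between 0.066 and 0.083). The corrected values rose in 2 of the 12 in SPF and 1 in GF skin, beside 6129 and 5542 of all 16466 genes. With ethanol, 1 of these 12 was higher and 1 lower in GF skin (0 lower with the length trend removed, beside 947 of all genes).

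Of 13 tested genes of other excitation and calcium handling steps 9 fell and 1 rose in each housing. Over all genes tested, 38.8 and 35.1% fell and 35 and 33.4% rose (SPF, then GF). Clcn1, the muscle chloride channel, changed by -2.46 and -1.96 and Cacna2d1, a calcium channel subunit, by -1.55 and -1.31, Srl fell by 2.53 in SPF skin, and Scn4a, the muscle sodium channel, fell by 1.18 in GF skin. Srl stood at 28.6, 0.874 and 2.37 CPM in SPF MC903 and at 27.6, 28.9 and 28.6 CPM in GF MC903 libraries, so that SPF MC903 1 lay at the GF level, and without it the SPF value was -5.29. Corrected values of Cacna2d1 were -0.92 and -0.81, and that of Scn4a was -0.71. The 1 with a call for a rise, picked after its values were seen, was Atp2a2, the calcium pump of slow fibres and many other cells, at 0.78 in SPF skin and 0.19 in GF skin. On library totals the GF value turned to a call for a fall (-0.32, adjusted p = 5.1e-04) and the SPF value was 0.21, and the GF call was also lost without GF MC903 4 (adjusted p = 0.062) or GF ethanol 1 (adjusted p = 0.064). Of 11 other energy genes 6 fell in each housing, beside 38.8 and 35.1% of all genes. On library totals 10 and 9 of the 11 fell, beside 10106 and 9697 of all 16466 genes. Corrected for length 7 and 9 of the 11 fell, beside 5714 and 5135 of all genes. The largest falls were in Ppp1r3a, a glycogen-targeting phosphatase subunit, at -2.32 and -2.09, Phka1 at -1.65 and -1.36 and Phkg1 at -0.96 and -0.90 (both phosphorylase kinase subunits). Of these 11, 5 were higher in GF ethanol skin, with a median of 0.55, beside 11.6% of all genes.

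The 14 atrophy genes gave 9 lower and 2 higher in SPF skin and 11 lower and 2 higher in GF skin. On library totals 1 was higher in each, beside 3127 and 2795 of all 16466 genes. Under TMM scaling 38.8% of all genes were lower and 35% higher in SPF skin, and 35.1% and 33.4% in GF skin. Gadd45a, a stress gene made in many cell types, rose by 2.79 and 2.09, while Mstn, myostatin, fell by 2.29 and 2.25 and Fbxo40, a muscle F-box protein, by 2.0 and 3.74. With ethanol, 1 of the 14 was higher and 1 lower in GF skin (3 lower on library totals and 2 after length correction). The shares of all genes with ethanol under TMM scaling were 11.6% higher and 10.3% lower. Of all 16466 genes, 2218 were lower on library totals and 947 after length correction. Of 7 tested developmental and regeneration isoforms 4 fell in each housing and 2 rose in SPF skin. After the length correction 2 fell and 1 rose in SPF skin and 3 fell in GF skin, beside 5714, 6129 and 5135 of all genes. Myh8 changed by -1.64 and -1.32, Myh3 fell by 0.93 and Cdh15, M-cadherin, by 0.61 in GF skin, and Tnnt2, cardiac and embryonic troponin T, rose by 0.98 in SPF skin. Corrected for length, Tnnt2 had 0.60 and Myh8 and Myh3 in GF skin -0.87 and -0.48, while the Cdh15 call was lost without GF ethanol 1 (adjusted p = 0.066). Actc1, cardiac actin, had 0.94 in SPF skin (adjusted p = 0.02), with overlapping groups of 1.04, 1.24 and 0.811 CPM with ethanol and 2.5, 2.44 and 0.921 CPM with MC903. It had no call on library totals (0.36, adjusted p = 0.31), after length correction (0.67, adjusted p = 0.072) or without SPF MC903 1 or 2 or SPF ethanol 3 (adjusted p between 0.073 and 0.087). With ethanol 1 of the 7 was higher in GF skin and 1 lower. With the length trend removed these counts were 2 and 0, beside 1193 and 947 of all genes.

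Markers of other tissues were read between the ethanol groups as well, where 11.6% of all genes tested were higher and 10.3% lower in GF skin. In GF ethanol skin 1 of 8 Schwann cell markers, 2 of 6 tested cartilage markers, 3 of 10 smooth muscle markers and 2 of 8 keratinocyte markers were higher, and 1 keratinocyte and 1 heart marker were lower. In length-corrected values 2 Schwann cell, 3 cartilage, 1 smooth muscle and 0 keratinocyte markers were higher, and on library totals 0 keratinocyte markers. Of all 16466 genes, 1193 were higher after length correction and 1420 on library totals. Of 7 adipocyte markers edgeR called 0 higher, with 2 at an unadjusted p under 0.05 and 1 each by DESeq2 and limma voom. Summed, Schwann markers ranged over 620 to 714 CPM in SPF and 741 to 774 CPM in GF ethanol libraries, cartilage markers over 397 to 463 and 461 to 480 CPM, and adipocyte markers over 166 to 194 and 218 to 285 CPM. The 45 muscle genes summed to 3470 to 4041 CPM in SPF ethanol and 5055 to 5382 CPM in GF ethanol libraries, and to 2560 to 2700 and 3618 to 3684 CPM with MC903. Neither treatment had overlapping sums between housings. The part of the amount or site of skin sampled in the housing difference was not tested.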

How the data were processed

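Whole ear skin was profiled by bulk RNA sequencing in 12 libraries, 4 groups of 3. The authors deposited, per the file headers, a single table that holds estimated counts and FPKM values by gene and library. Tools named in the submitters' processing notes are HISAT2 2.1.0, StringTie 1.3.4d, Trimmomatic and bcl2fastq 2.20.0, with build mm10. How they were set, and which annotation and strand rule applied, is not given in the sources used here. The estimated counts, whole numbers as deposited, went into every test, and FPKM served for levels per length and for implied gene length.

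Genes with low counts were removed by filterByExpr with the groups as design (count of at least 10, total of at least 15). edgeR 4.0.16 in R 4.3.3 fitted all 12 libraries with 1 coefficient per group, TMM scaling and the quasi-likelihood test. P-values were adjusted by Benjamini-Hochberg over 16466 genes, and an adjusted p under 0.05 is a call. CPM uses TMM-scaled library sizes. The comparisons were MC903 minus ethanol in SPF and in GF skin, the difference of these responses, and GF minus SPF skin with each treatment. The 2 responses share no library, nor do the 2 housing comparisons, but each response shares libraries with each housing comparison, and all share the fit's estimate of spread. Replicates differed by more than sampling noise in all 12 pairs (chi-square per degree of freedom 17.2 to 44.9). On simulated counts for the SPF comparison over 16218 genes, 47 of 50 genes raised 2-fold and 43 of 50 lowered 2-fold were recovered, and 9 unchanged genes were called. The table held 0 columns from other samples. P-values come from the fit. Each standard error was derived from it, as the unshrunk log2 difference over the square root of the test's F statistic. Both include the variation between libraries.

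The members, gene lists and tests were chosen with earlier results of these data known. All members are described. In the other lists, the rule names up to 3 genes per response with the largest change among those called; some results under this rule are not reported here. Alternatives were DESeq2 1.42.0, limma voom (limma 3.58.1), library totals in place of TMM, no filter, 1 CPM in 3 libraries, each library left out, a replicate block, and a lowess trend of fold change on length removed (span 0.3). Promoters and coordinates are from RefSeq tables of GRCm38.p6, the same assembly as mm10. Protein sequences were not used here.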

Additional observations from a re-analysis of the deposited data

Results flagged for a closer look

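For 3 members the response to MC903 differed between GF and SPF skin in edgeR's test of that difference. Tnni1 (slow troponin I) had -1.39 on the log2 scale, with rises of 1.0 in GF and 2.40 in SPF skin. Tpm2 (beta-tropomyosin) had -0.73, with rises of 0.85 and 1.58. Ldb3 (a Z-disc adaptor) had -0.44 (adjusted p = 0.044), with -0.46 in GF and -0.02 in SPF skin, and the call was lost without any of 10 of the 12 libraries (adjusted p between 0.057 and 0.099).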

How the results depend on the processing

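Leaving out each library in turn turned no member result that had a call in either fit: 2615 stayed on the same side of the threshold, 64 lost a call and 21 gained one. Among results with a call in either fit, with the length trend removed the SPF response turned for Myl2 (-0.50), Tnnc1 (-0.67), Ttn (0.03), Csrp3 (-0.06), Pgam2 (-0.27), Cox6a2 (-0.42) and Cox7a1 (-0.60), and with the replicate block added these were -0.50, -0.67, 0.03, -0.07, -0.27, -0.42 and -0.58. The GF response turned for Tnnt1 (-0.43), Tnnc1 (-0.77), Tnnc2 (-0.71), Csrp3 (-0.46), Pgam2 (-0.43), Cox6a2 (-0.67) and Cox7a1 (-0.82), and with the block -0.43, -0.79, -0.71, -0.47, -0.43, -0.68 and -0.82. Between housings it turned Neb with ethanol (0.45) and Myl1 (-0.07) and Myoz2 (-0.03) with MC903. On library totals the SPF response turned for Tnnt1 (-0.36), Tnnc1 (-0.57), Csrp3 (-0.12), Pgam2 (-0.32) and Cox6a2 (-0.28), and the GF response for Tnnt1 (-0.40), Tnnc1 (-0.47), Tnnc2 (-0.40), Csrp3 (-0.33), Pgam2 (-0.31) and Cox6a2 (-0.32). Results with no call in either fit also changed sign: with the length trend removed Tnnt1 in SPF skin (-0.24), Myh1 (0.05), Ttn (0.54), Myoz2 (-0.01) and Casq2 (-0.01) between housings with ethanol, and Neb (0.04), Smpx (-0.01) and Casq2 (-0.01) with MC903; on library totals Myl2 (-0.38) and Cox7a1 (-0.25) in SPF skin, Cox7a1 (-0.18) in GF skin and Casq2 (-0.03) between housings with ethanol. The cause of these turns was not tested.

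Members higher in SPF skin with MC903 numbered 2 on library totals, with the length trend removed and with block and length trend, and 3 to 6 without 1 library. In GF skin they numbered 2 to 4 without 1 library. For the difference of responses, 1 member was higher on library totals (0 to 1 without 1 library) and 6 were lower with block and length trend (2 to 4 without 1 library). Genes called between housings with ethanol numbered 3616, against 2140 with the length trend removed and 1475 to 3981 without 1 library. The count fell by more than 1.5 times without GF ethanol 4 (1475), SPF ethanol 3 (2333) or SPF ethanol 2 (2354). With MC903, members lower in GF skin numbered 2 by DESeq2 and 0 to 2 without 1 library. Among the ratios with treatment, Myl2 over Mylpf was 0.37 with the length trend removed (0.36 to 0.57 without 1 library), Myl3 over Myl1 was 0.42 with the replicate block (adjusted p = 0.047; 0.23 to 0.58 without 1 library) and Myh7 over Myh4 was 0.16 to 0.33 without 1 library. Tnnc1 over Tnnc2 between housings was 0.25 to 0.42.

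The labels do not say whether same-numbered ethanol and MC903 libraries share a mouse, and the main tests did not pair them. The correlations of their deviations in 6 pairs lay between -0.009 and 0.126, and 1 was over 0.1. Deviations from means of 3 libraries cannot settle whether a mouse was shared. The replicate block left 131 member results of the responses as they were, gave 3 calls and took 1. No paired analysis was possible between housings because each mouse was raised either SPF or GF, so a shared number makes no pair. Low counts limit Mybpc2, Myl3 and Myl2, and also Myh7, Ampd1, Casq2 and Cox7a1.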
